A study of Mus musculus with 6 samples.

Results

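The Six-family, Eya and Dach genes encode a small network of nuclear proteins, and 9 of them were followed here in sorted cells of the embryonic mouse hand plate. They were Six2, Six4, Six5, Eya1, Eya2, Eya3, Eya4, Dach1 and Dach2, found on the array as all non-control probes that carry 1 of these gene symbols. The rule found 14 of the 55681 probes, and 11 of the 14 were bright enough to be compared. All 9 genes were therefore among the 13197 genes tested. The rule itself uses no measured value, but the 9 genes were chosen with earlier results of these arrays known.

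Six-family proteins are homeodomain transcription factors that bind DNA. Eya proteins do not bind DNA themselves but join them as coactivators and carry a protein phosphatase activity, and Dach proteins, relatives of the Ski and Skil proto-oncogene products, act mostly as corepressors in the same complexes. The network was first described in the fly eye, and in vertebrates it is known for roles in kidney, ear and muscle development, with several members described in limb buds and in their muscle and tendon precursors.

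Both groups of cells came from mouse embryos at stage E11.5, of C57BL/6 background, that carried EGFP knocked in at the Sox9 locus. Sox9 is a transcription factor gene required for cartilage. Cells of the forelimb autopod, the hand plate in which digits form, were separated by FACS into cells positive and cells negative for Sox9-EGFP, all described as mesenchymal by the submitters. Each group had 3 samples of about 10 pooled autopods each, and every sample was hybridised to its own 1-colour array. The 2 groups share the knock-in allele, so no group without it was compared. The reporter shows cells that make Sox9, or made it recently enough to keep the green protein. The sources used here give neither sort gates nor litters, so p-values measure only the spread between these samples, which may be technical. In bulk samples of this kind, fewer cells of a type and less RNA per cell cannot be told apart.

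Dach1 and Dach2 were both lower in Sox9-EGFP positive cells, Dach1 by 7.28-fold and Dach2 by 2.62-fold, with no overlap between the groups. The Dach2 probe was above background on 2 of 3 positive arrays, and its log2 difference of −1.39 was −0.73 in the authors' table and −1.68 with quantile normalization. Six5 was 1.43-fold higher and Eya3 1.44-fold lower, and these smaller differences lost their call when single arrays were left out, Eya3 also under each of the 4 other scalings, where it was −0.37 to −0.18 on the log2 scale. Six2, Six4, Eya1, Eya2 and Eya4 did not pass the test. In all, 4 of the 9 genes were called at an adjusted p under 0.05 in limma, a linear model with a variance shared between genes, against 35.0% of all genes tested. Of these 1 was higher, against 10.6% of all genes called in that direction, and 3 were lower, against 24.4%. The groups of these 4 genes did not overlap, a pattern found in 51.3% of all genes.

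The sequences next to the start sites of the members with the largest differences are shown first, since these are the genes the comparison turns on. RefSeq promoter windows of build GRCm38.p6, running from 250 bases before to 50 bases after a start site, were matched by symbol for 7 of the 9 members, and Eya1 and Eya2 had no entry. The 250 upstream bases are printed 5′ to 3′ on the strand of the gene. Dach1 is shown as the member with the largest difference (chr14:98169766-98170015, minus strand), Dach2 with its 2 annotated starts (chrX:113297260-113297509 and chrX:113298006-113298255, plus strand), and Six4 (chr12:73113246-73113495, minus strand) as the member whose window held a motif searched for. Capitals mark that motif and nothing else.
Dach1: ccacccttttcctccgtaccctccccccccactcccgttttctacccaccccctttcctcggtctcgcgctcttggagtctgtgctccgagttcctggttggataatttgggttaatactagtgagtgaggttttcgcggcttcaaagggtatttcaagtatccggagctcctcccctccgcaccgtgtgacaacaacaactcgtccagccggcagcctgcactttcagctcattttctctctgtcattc
Dach2 first start: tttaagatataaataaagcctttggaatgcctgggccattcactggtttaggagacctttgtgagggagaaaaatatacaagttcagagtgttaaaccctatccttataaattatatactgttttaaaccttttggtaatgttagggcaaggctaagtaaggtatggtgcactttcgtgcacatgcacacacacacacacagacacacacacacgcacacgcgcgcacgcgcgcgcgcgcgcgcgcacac
Dach2 second start: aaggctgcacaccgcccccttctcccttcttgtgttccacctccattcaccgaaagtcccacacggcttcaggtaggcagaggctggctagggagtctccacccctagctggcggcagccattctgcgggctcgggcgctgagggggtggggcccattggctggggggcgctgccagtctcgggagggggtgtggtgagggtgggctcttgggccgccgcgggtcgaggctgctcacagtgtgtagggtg
Six4: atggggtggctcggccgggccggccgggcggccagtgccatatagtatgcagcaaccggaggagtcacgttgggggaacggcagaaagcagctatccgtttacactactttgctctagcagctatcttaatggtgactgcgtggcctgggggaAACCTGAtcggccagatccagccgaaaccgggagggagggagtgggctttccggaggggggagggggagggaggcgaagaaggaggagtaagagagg

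Motifs were searched on both strands of each 300-base window and are a description of letters, not of binding. They were TCAGGTT, the core of the MEF3 element known to be bound by Six-family proteins, TGATAC, a core bound by the homeodomains of Six-family proteins, and ACAATG, a core bound by SOX proteins; none of them contains another. The 7 matched members had 10 windows, and 1 of them held a motif: the Six4 window shown carried AACCTGA, the reverse complement of TCAGGTT, 97 bases before the start site. Among all 32851 windows TCAGGTT occurred in 4.07%, TGATAC in 5.46% and ACAATG in 12.6%. The windows of Dach1 and Dach2 thus held none of these letters in this stretch. CpG dinucleotides numbered 13 in the Dach1 window, 15 and 16 in the Dach2 windows, 15 to 17 in those of Six4 and Six5, 25 in that of Eya3, 28 and 36 in those of Eya4 and 37 in that of Six2, with a median of 7 over all windows. The first Dach2 sequence ends in a long run of ca and cg repeats.

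The arrays differed in brightness. Positive replicate 1 was the dimmest, with a 75th percentile of 126 against 385 to 478 elsewhere, and with 24743 spots well above background against 29800 to 35277. Sox9, the check of the sort, was higher by 4.37 ± 0.19 on the log2 scale (± after a difference is its standard error, adjusted p = 0.00015) and above background on all 6 arrays. Without positive replicate 1 the count of called members was 1 higher and 4 lower. All values below are log2 signals relative to the 75th percentile of their own array, and each difference is positive minus negative. They describe 1 probe across arrays and are not levels to be ranked between genes. On this scale the median of all genes was −0.18, and it moved to −0.031, −0.044 and −0.043 with normexp correction and quantile normalization, with quantile normalization alone and in the authors' table. Of the genes called, 30.3% were higher in positive cells, against 44.6% to 46.3% under those 3 scalings and with centring on the median. Differences relative to the median are given beside the members called.

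Dach1 showed the clearest difference of the network. Its signal was 2.49, 2.19 and 2.35 in positive replicates 1, 2 and 3, and 5.18, 5.21 and 5.23 in negative replicates 1, 2 and 3. All 3 negative arrays were high and nearly equal, all 3 positive arrays were low, and the groups lay far apart. Means were 2.34 ± 0.15 and 5.21 ± 0.027 (SD, n = 3), a difference of −2.86 ± 0.12 (95% interval −3.15 to −2.58, limma adjusted p = 0.00015), or −2.69 relative to the median of all genes. Dach1 ranked at position 168 of the 13197 genes by size of the difference, with 1.27% of genes ahead of it.

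A second Dach1 probe gave the same picture. The 2 probes lie on the minus strand of chromosome 14 at 98186124 to 98186183 and 98186562 to 98186621 (mm9, as the files give it), both assigned by the files to transcript NM_007826; exon and UTR positions were not looked up, as no annotation of that build was used here. The second probe read −0.57, −0.80 and −0.77 in the positive samples and 2.08, 2.38 and 2.49 in the negative samples. Again every negative array was above every positive array. Its difference was −3.03 ± 0.16 in the fit over single probes (limma adjusted p = 0.00055), in which 21.6% of probes were called. The 2 probes share a transcript and the same RNA and are not independent replicates.

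Dach2, on the X chromosome, read near background and was lower in positive cells as well. Its signal was −3.44, −3.31 and −3.43 in positive replicates 1 to 3 and −1.91, −1.99 and −2.10 in negative replicates 1 to 3. The groups did not overlap, and the spread within each was small. The probe was above background on all 3 negative arrays and on 2 of the 3 positive ones, replicate 1 being the exception. The reading of −3.44 there is therefore not a measured level, and the gene passed the filter through the negative group. Means were −3.39 ± 0.074 and −2.0 ± 0.10 (SD, n = 3), a difference of −1.39 ± 0.11 (limma adjusted p = 0.00062), or −1.21 relative to the median of all genes. Without positive replicate 1 it was −1.37 (adjusted p = 0.00125).

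The size of the Dach2 difference moved with the processing while its call did not. It was −0.74 after normexp correction, which here adds an offset of 50 to every signal, with quantile normalization, −0.73 in the authors' table and −1.68 after quantile normalization alone, with adjusted p of 0.00166, 0.00185 and 0.00265. The call was kept in all 17 alternatives that could test the gene, with adjusted p from 0.00013 to 0.0107. The probe stands at chromosome X 110949122 to 110949181 on the plus strand (mm9) and is assigned to NM_033605. The other Dach2 probes, at 110946868 to 110946927 and 110945354 to 110945413 and both assigned to NM_001142570, were not above background on all arrays of either group: the first was on 1 positive and 1 negative array, the second on 1 positive array. Their log2 signals, which ranged from −5.32 to −4.20 in positive and −6.74 to −3.90 in negative samples, were not compared.

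**Figure D1:**
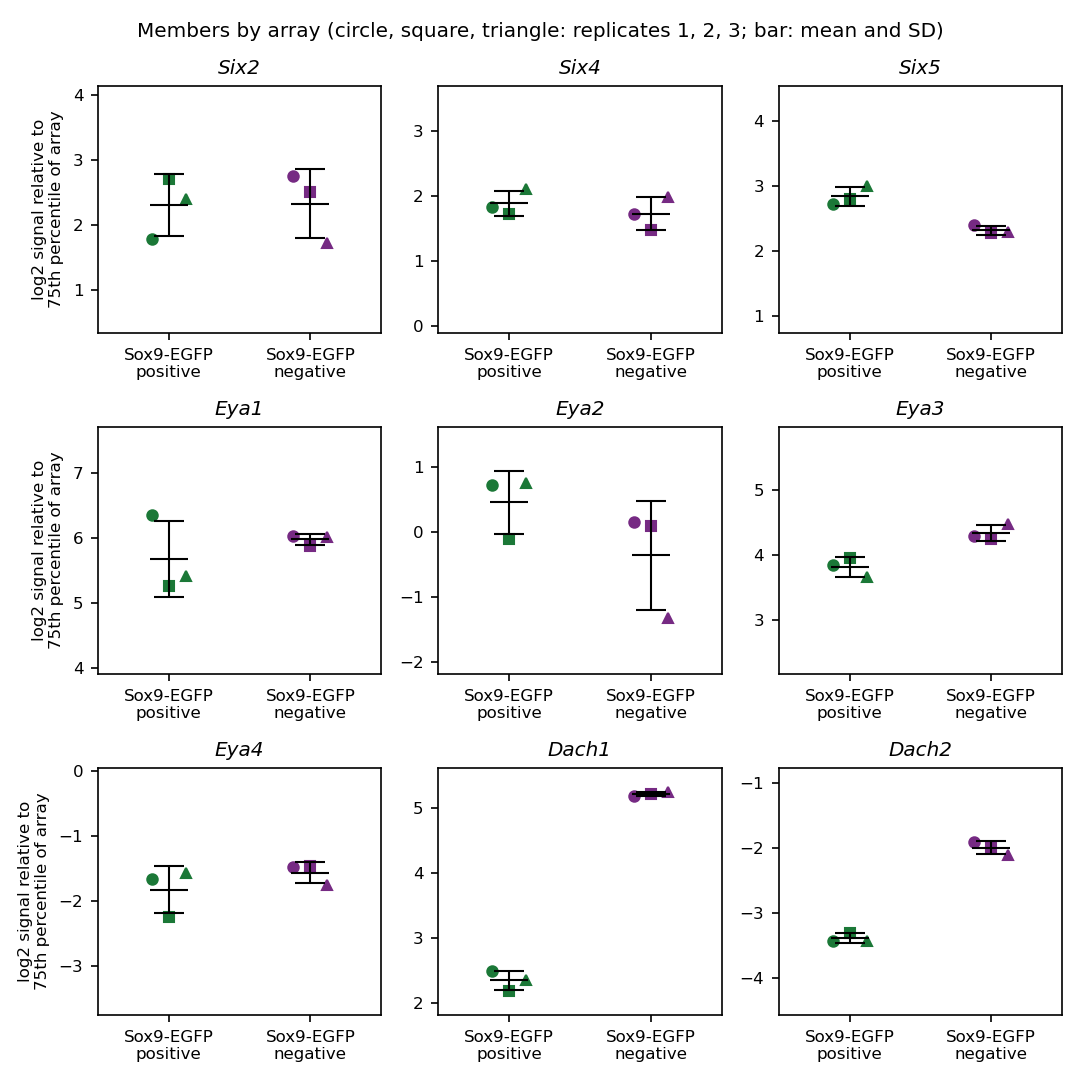
Log2 signal relative to the 75th percentile of the array for each of the 9 genes (y axis, every panel spanning the same range of log2 units), by sorted group; points are single arrays, with circles, squares and triangles for replicates 1, 2 and 3, and black bars give the mean and SD of 3 arrays. Dach1 and Dach2 show 2 tight and separate groups, Six5 and Eya3 show narrow gaps, and the groups of the other 5 genes overlap. The Dach2 probe was not above background in positive replicate 1, so that point is not a measured level.

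Among the Six-family members, Six5 was the one that passed the test. Six5, a homeodomain gene next to the myotonic dystrophy kinase gene Dmpk (probe at chromosome 7, 19683437 to 19683496, plus strand, mm9), read 2.71, 2.79 and 3.0 in the positive samples and 2.39, 2.27 and 2.29 in the negative samples. Every positive array was above every negative array, by a gap of about the size of the spread. The difference was 0.52 ± 0.12 (limma adjusted p = 0.0189), 0.70 relative to the median of all genes. Leaving out single arrays ended the call for 4 of them: positive replicate 3 (then 0.44, with an adjusted p of 0.0589), negative replicate 1 (0.56, 0.0570), negative replicate 2 (0.50, 0.0522) and negative replicate 3 (0.51, 0.0704). The direction was the same in all 18 alternatives, with differences of 0.44 to 0.77, and 12 of the 18 kept the call.

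Six4, a homeodomain gene known from muscle development (probe at chromosome 12, 74201246 to 74201305, minus strand, mm9), read 1.83, 1.73 and 2.11 in positive samples and 1.73, 1.48 and 1.98 in negative samples. The 2 groups overlapped, and replicate 3 was the highest in each. The difference was 0.16 ± 0.17 with a 95% interval from −0.26 to 0.58 (limma adjusted p = 0.522).

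Six2, known as a keeper of nephron progenitors in the kidney and expressed in connective tissue (probe at chromosome 17, 86083634 to 86083693, minus strand, mm9), varied more between arrays than between groups. It read 1.78, 2.72 and 2.41 in positive samples and 2.75, 2.50 and 1.73 in negative samples. High and low arrays occurred in each group, so that the groups overlapped throughout. The difference was −0.026 ± 0.34 with a 95% interval from −0.85 to 0.80 (limma adjusted p = 0.958). A second probe of the same transcript NM_011380, above background on 2 of 3 positive and all 3 negative arrays, differed by −0.062 ± 0.51 (adjusted p = 0.943). The third probe, assigned to the cDNA AK142139, was above background on 1 positive array and was not compared. The sign of the Six2 difference was negative in 11 of 18 alternatives and positive in the others, and none of them was called.

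Of the 4 Eya genes, which encode the coactivators, 1 passed the test. Eya3 (probe at chromosome 4, 132280589 to 132280648, plus strand, mm9) had signals of 3.84, 3.95 and 3.66 in positive and 4.29, 4.25 and 4.49 in negative samples. All negative arrays were above all positive ones, with replicate 3 the lowest positive and the highest negative array. The difference was −0.53 ± 0.13 (limma adjusted p = 0.0237), but −0.35 relative to the median of all genes.

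The Eya3 call rested on the scaling. With normexp and quantile normalization the difference was −0.18 (adjusted p = 0.239), with quantile normalization −0.21 (0.216), in the authors' table −0.21 (0.201) and with centring on the median −0.37 (0.0520). Leaving out positive replicate 3 (−0.44, with an adjusted p of 0.0750), negative replicate 1 (−0.55, 0.0725) or negative replicate 3 (−0.45, 0.0855) also ended the call. The direction was lower in all 18 alternatives, of which 9 kept the call.

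Eya1, mutated in branchio-oto-renal syndrome (probe at chromosome 1, 14159982 to 14160041, minus strand, mm9), read 6.35, 5.26 and 5.41 in positive samples and 6.03, 5.87 and 6.02 in negative samples. Positive replicate 1 was the highest of the 6 arrays, while the other 2 positive arrays lay below all negative ones, so the groups overlapped through 1 array. The difference was −0.30 ± 0.29 (95% interval −1.0 to 0.40, limma adjusted p = 0.462). Without positive replicate 1, the dimmest array, it was −0.64 (adjusted p = 0.0111), and with array weights it was −0.61 (adjusted p = 0.0187). The sign turned under normexp with quantile normalization (0.025) and quantile normalization alone (0.053), where the gene was not called.

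Eya2, described in muscle and tendon precursors of the limb (probe at chromosome 2, 165597072 to 165597131, plus strand, mm9), was the most variable member. It read 0.72, −0.11 and 0.76 in positive samples and 0.16, 0.098 and −1.32 in negative samples. Negative replicate 3 was by far the lowest array, and positive replicate 2 lay below the other 2 negative arrays, so that the groups overlapped. The difference was 0.81 ± 0.46 (95% interval −0.29 to 1.91, limma adjusted p = 0.213), and it was 0.33 without negative replicate 3 (adjusted p = 0.488). With the slide as a block the same difference of 0.81 was called (adjusted p = 0.0217); over all genes, deviations of the 2 arrays of a slide correlated at 0.46, 0.36 and 0.23.

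Eya4, known from a form of inherited deafness and heart disease (probe at chromosome 10, 22824002 to 22824061, minus strand, mm9), read −1.66, −2.25 and −1.57 in positive samples and −1.48, −1.47 and −1.75 in negative samples. The groups overlapped, with positive replicate 2 the lowest array. The difference was −0.26 ± 0.21 (95% interval −0.76 to 0.24, limma adjusted p = 0.373), and no alternative called it.

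**Figure D2:**
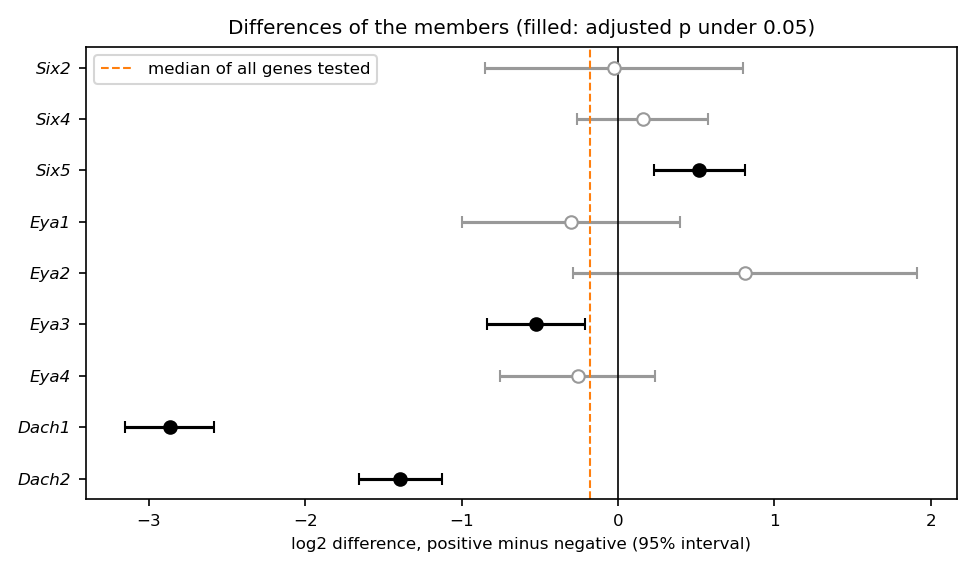
Log2 difference between Sox9-EGFP positive and negative cells (x axis) for each gene, with 95% intervals from limma; filled points passed an adjusted p of 0.05, and the dashed line marks the median of all genes tested at −0.18. The intervals of Dach1 and Dach2 lie far below both lines, that of Eya3 lies just below the dashed line, and those of the 5 open points include 0.

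The file headers place the 6 arrays on 3 slides, each with 1 array of each group, so that every difference could also be read within a slide. Dach1 differed by −2.71, −3.05 and −2.83 on slides 1, 2 and 3. Dach2 differed by −1.45, −1.20 and −1.52. Within each slide the 2 Dach genes were lower in positive cells. Their groups did not overlap, so this sign was fixed in advance. The pooled difference is the mean of the 3 slide values, so their closeness to it is no further check.

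Six5 was higher within each slide, by 0.45, 0.51 and 0.61, and Eya3 was lower within each, at −0.41, −0.53 and −0.64. Since the groups of these genes did not overlap either, their signs were also fixed in advance. Eya2, which missed the threshold in the pooled fit, was higher within every slide, by 0.62, 1.22 and 0.60. Eya4 was lower within each, at −0.19, −0.49 and −0.085. Six2, Six4 and Eya1 changed sign between slides: Six2 gave −0.72, 0.99 and −0.34, Six4 gave 0.35, −0.26 and 0.38, and Eya1 gave 0.48, −0.76 and −0.62. With the slide as a block the adjusted p was 0.00136 for Dach1, 0.0037 for Dach2, 0.0202 for Six5 and 0.0219 for Eya3.

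**Figure D3:**
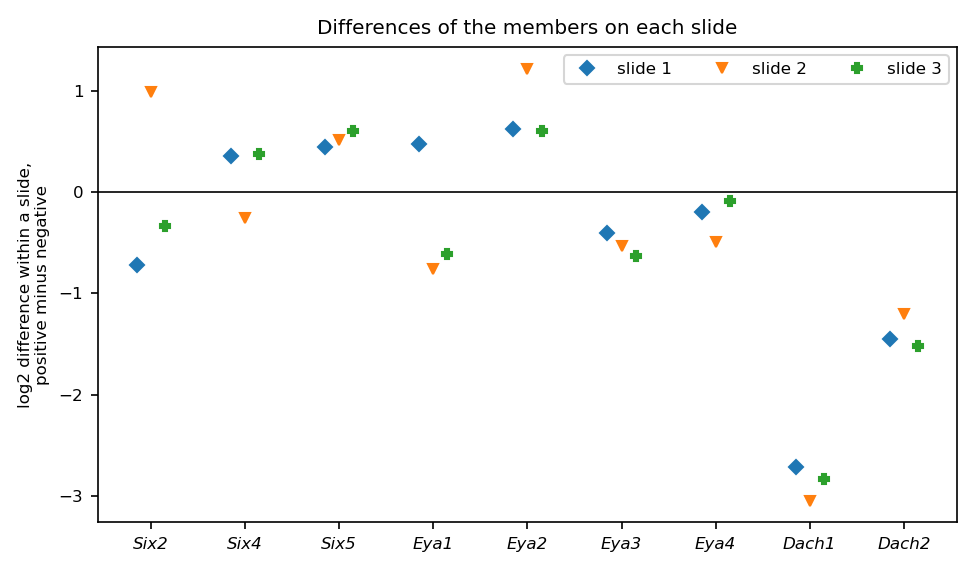
Log2 difference between the positive and the negative array of the same slide (y axis) for each gene, with 1 symbol per slide. Dach1, Dach2, Eya3 and Eya4 lie below 0 on all 3 slides, Six5 and Eya2 above 0 on all 3, and Six2, Six4 and Eya1 on both sides.

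The difference was also recomputed under each of the alternative settings of scaling, filtering, moderation and array use. Dach1 stayed between −2.95 and −2.49 and was called in all 18. Six5, Six4 and Eya2 were above 0, and Eya3, Eya4, Dach1 and Dach2 below 0, in every alternative that tested them.

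**Figure D4:**
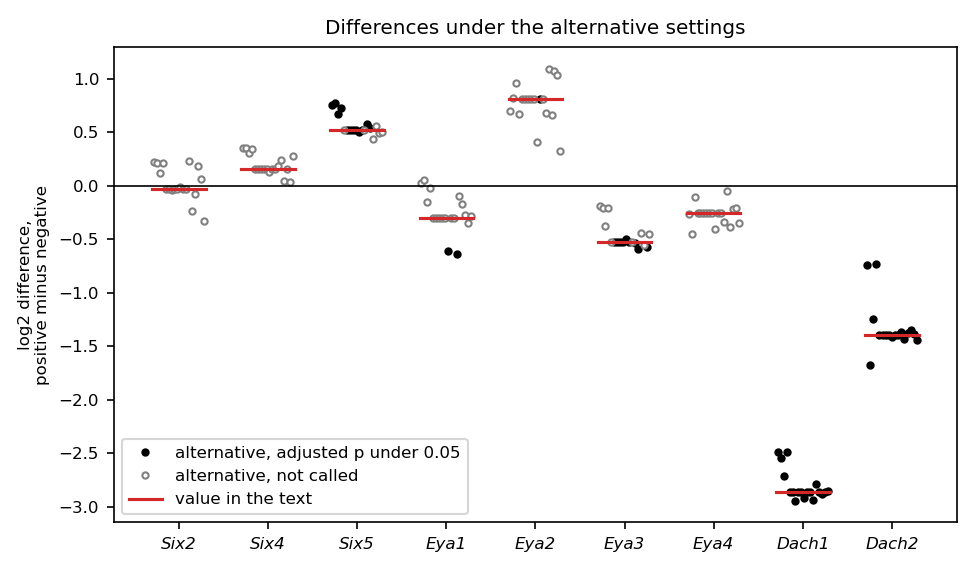
Log2 difference of each gene (y axis) under the alternative settings, with 1 point per setting, filled where the adjusted p was under 0.05; the red line is the value given in the text. Dach1 and Dach2 have filled points alone. Six5, Eya3, Eya1 and Eya2 have filled and open points, with 2 of 18 filled for Eya1 and 1 of 18 for Eya2. Six2 and Eya1 have points on both sides of 0.

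The wider pathway was read from a list of 25 partners and relatives, chosen by known role. It holds further Six-family genes, Pax factors that act upstream or beside them, the cofactor gene Sobp, the Dach relatives Ski and Skil, the Groucho family corepressors Tle1 to Tle4 with Aes, and general corepressors and coactivators. Of the 25, Six3, Six6, Pax1, Pax2, Pax6, Pax7 and Pax8 were not above background in either group, and 18 were tested. Among the 18, 3 were higher, 3 were lower and 12 were not called, against 10.6% and 24.4% of all genes called higher and lower, with a median difference of −0.060 against −0.18 for all genes.

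Sobp, which encodes a zinc finger cofactor of Six-family proteins, was higher by 1.20 ± 0.14 (limma adjusted p = 0.00198): it read 2.30, 2.56 and 2.68 in positive and 1.39, 1.35 and 1.21 in negative samples, without overlap.

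The Tle genes, whose products are corepressors that Six-family proteins can recruit without Eya, went both ways. Tle2 was higher by 1.89 ± 0.25 (limma adjusted p = 0.00313), while Tle4 was lower, at −1.06 ± 0.15 (0.00389), and Tle3 at −0.77 ± 0.12 (0.00559). Tle2 and Tle4 kept their call in all 18 alternatives. Tle3 lost it with normexp and quantile normalization (−0.39, adjusted p = 0.0557) and with quantile normalization (−0.41, 0.0740). The third higher gene of the list was Crebbp, a histone acetyltransferase gene, named after its values were seen (0.89 ± 0.25, adjusted p = 0.0347), which lost its call in 6 of 18 alternatives: with no filter on background (0.0979), with single probes (0.0555), and without positive replicate 2 (0.0544), negative replicate 1 (0.0801), negative replicate 2 (0.0823) or negative replicate 3 (0.116). The Dach relatives Ski and Skil differed by −0.040 ± 0.17 and 0.058 ± 0.19 and were not called (adjusted p of 0.871 and 0.838).

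The third lower gene was Pax3, the marker and regulator of migrating muscle precursors. It was above background on all 3 negative arrays and on none of the positive arrays, and was at least 4.19-fold lower in positive cells (limma adjusted p = 0.00277). For such a bound, the mean of the group with signal is set against a floor on each array of the other group, namely the dimmest probe still well above background there, or the probe's own signal if that is higher. In positive replicate 1 the floor stood at −2.73, and in positive replicates 2 and 3 at −4.69 and −4.77. The fitted difference of Pax3, which is no bound, was −1.33 after normexp with quantile normalization and −1.32 in the authors' table, less than this bound on its own scale.

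A second list held 21 genes described as regulated by Six-family and Eya proteins in muscle, kidney or tumour cells, of which Myf5, Myf6, Gdnf and Neurog1 were not above background in either group. Of the 17 tested, 4 were higher, 6 were lower and 7 were not called, against 10.6% and 24.4% of all genes called higher and lower, with a median of −0.25 against −0.18 for all genes. Myog and Myod1, both lower, were above background on no positive array and passed the filter through the negative group alone. Gas1 kept its call in 3 of 18 alternatives, Slc12a2 in 8 of 18, Myod1 in 10 of 17 and Myog in 12 of 17. These genes were named after their values were seen. The other called genes except Ccna1 kept theirs in every alternative that tested them. Igfbp5, a secreted binder of insulin-like growth factors, was higher by 5.52 ± 0.44 (limma adjusted p = 0.00068) and was above background on 2 of the 3 negative arrays; it was 3.82 after normexp with quantile normalization and 3.70 in the authors' table, still called. Sall1, a zinc finger gene of kidney and limb, was higher by 1.52 ± 0.23 (0.00471). Ccna1, a cyclin gene, was higher by 1.52 ± 0.22 (0.00434), with 2 of 3 positive arrays above background, and lost its call with normexp and quantile normalization (adjusted p = 0.0658), quantile normalization (0.0605) and the authors' table (0.0708).

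Mycn, a growth-promoting transcription factor gene, was lower at −2.11 ± 0.20 (limma adjusted p = 0.00104), and Aldoa, a glycolytic enzyme gene with a MEF3 element described in muscle, was lower at −1.20 ± 0.10 (0.00075). Called members of the list therefore lay on both sides of 0. Dmpk, whose probe lies 4.37 kb from that of Six5, differed by −0.021 ± 0.13 (adjusted p = 0.907). Its interval and that of Six5 came from the same arrays, and the difference between the 2 genes was not tested.

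**Figure D5:**
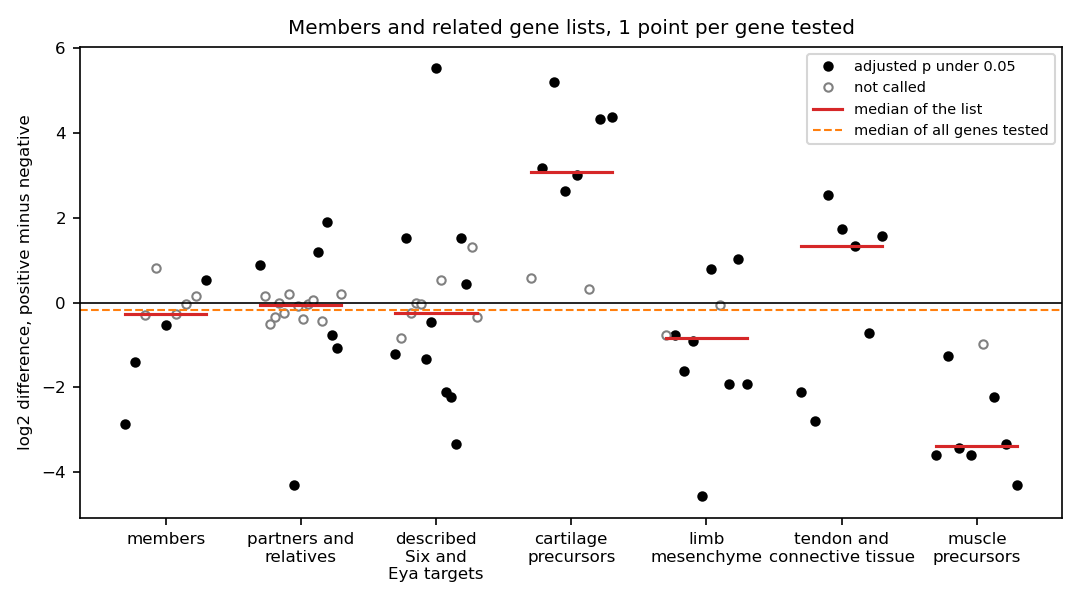
Log2 difference between positive and negative cells (y axis) for every tested gene of the network, of its partners, of described targets and of the limb cell types, with 1 point per gene, filled where the adjusted p was under 0.05; red lines are list medians and the dashed line is the median of all genes. Most network genes and partners lie around the dashed line, with Dach1, Dach2 and Pax3 well below it and Tle2 and Sobp well above it. Of the cartilage precursor genes 6 of 8, Sox9 among them, lie above 2, and the muscle precursor genes tested lie below 0. Genes not above background on all arrays of a group are plotted at their fitted value.

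Markers of the cells that a hand plate holds were counted in the same fit, in which 10.6% of all genes were called higher and 24.4% lower. Of 10 limb mesenchyme genes, all above background on all 6 arrays, 2 were higher and 6 lower, and of 8 cartilage precursor genes 6 were higher and none was lower. Of 9 tendon and connective tissue genes 7 were tested, with 4 higher and 3 lower, among them Scx at 1.34 ± 0.17 and Mkx at −2.80 ± 0.25. Of 10 ectoderm genes 6 were tested and 3 were higher, of 7 nerve genes 4 were tested and 1 was higher, and of 10 endothelial and 10 blood genes 4 and 7 were tested and 1 of each was lower. The other tested genes of these 4 lists were not called. The summed linear signal of the blood genes was 58.6 on the array of negative replicate 2 and 2.42 to 7.53 on the other 5. Without negative replicate 2 Dach1 differed by −2.86 (limma adjusted p = 0.00165), Dach2 by −1.39 (0.0046) and Eya3 by −0.57 (0.0425).

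Since genes of this network are known in muscle precursors, those markers are given beside Dach1, Dach2 and Eya3. Of 12 muscle precursor genes 8 were tested, 7 were lower in positive cells and none was higher. Their summed linear signal, relative to the 75th percentile, was 0.39 to 0.56 on the positive arrays and 1.41 to 3.05 on the negative arrays. Pax7, Myf5, Msc and Des were not above background in either group, and Pax3, Myod1, Myog and Chrna1 were above it on no positive array. Of the 8 tested, only Cdh15 was above background on all arrays of both groups. The rest passed the filter through the negative group alone, which favours a lower difference. Neither the count of 7 nor the summed signal can therefore decide the direction, and the positive sums include readings not above background. Cdh15 itself differed by −1.26 ± 0.27 (limma adjusted p = 0.0148) and was called in 15 of 18 alternatives. Lbx1, a homeobox gene of migrating muscle precursors, differed by −3.60 ± 0.39 (limma adjusted p = 0.00175), with 1 positive array above background, and by −1.73 after normexp with quantile normalization and −1.69 in the authors' table, still called. The part of muscle precursors in the Dach1, Dach2 and Eya3 differences was not tested.

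Dach1 was the called member with the largest lower difference and Six5 that with the largest higher one, and the 4 genes closest to each over the 6 arrays were found by the distance between centred log2 signals. Chst8, a sulfotransferase gene, was closest to Dach1 at a distance of 0.205, with a difference of −2.84 (limma adjusted p = 0.00013). The others were Akr1c13 (distance 0.240) and Sema3c (0.437), a guidance molecule gene, each above background on 2 of 3 positive arrays, and Fam163a, which was above background on no positive array and so has no measured distance. For Six5 the 4 were Fam234a (0.0477), Dop1b (0.0825), Hipk3 (0.0983) and Wdr60 (0.112), with differences of 0.53, 0.50, 0.54 and 0.51. These distances cover 6 arrays that share 3 slides, and a close profile over 6 points is a description.

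The surroundings of the members differed in how many measured genes they held. No tested gene had a probe within 500 kb of those of Dach1 or Dach2. Around Eya1, Six2 and Eya4 there were 1, 4 and 2 tested genes, and none of them was called. Around Six4 there were 8, with 2 higher and 1 lower, and around Eya2 there were 9, with 2 higher and 2 lower. The lower count around Eya2 was 0 to 1 under the other scalings.

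Six5 had 30 tested neighbours, 5 higher, 3 lower and 22 not called. Under the other scalings 4 to 5 were higher and 1 to 3 lower. The largest difference was that of Gpr4, a receptor gene at 125 kb, with 2.98 ± 0.17 (limma adjusted p = 0.00023). Eya3 had 22, with 2 higher, 9 lower and 11 not called, and 5 to 6 lower under the other scalings. These counts stand against 10.6% and 24.4% of all genes called higher and lower. The called gene nearest to Eya3 was Smpdl3b, at 8.64 kb, with −2.48 ± 0.23 (adjusted p = 0.00101) and 2 of 3 positive arrays above background. The alternatives gave −2.93 to −1.0, all called. Xkr8, nearer still at 2.63 kb, differed by 0.092 ± 0.15 (adjusted p = 0.672). Gpr4, Smpdl3b and Xkr8 were named after their values were seen.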

How the data were processed

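RNA of 6 sorted samples was measured on 1-colour Agilent arrays. The intensity values were deposited by the authors as Feature Extraction 10.7.3.1 output, corrected for background within each array, per the file headers. The deposited series matrix holds log2 values with a median of 6.41, a minimum of 5.65 and a maximum of 18.7 in every column; the sources used here do not say how they were scaled.

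Processed signals were taken as log2 minus the 75th percentile of 59305 non-control spots. A probe was kept if 1 group or both had it above background on all 3 arrays, and the brightest kept probe stood for its gene. The test was that of limma 3.58.1 (R 4.3.3), with Benjamini-Hochberg adjustment over 13197 genes and a threshold of 0.05, and the number of arrays limits the precision. Tested on simulated data of 13197 genes with 3 arrays a group, it recovered 14% of 50 genes changed by a factor of 1.5. For factors of 2, 4 and 8 it recovered 54%, 84% and 94% of 50 genes each. Among 124 genes called, 1 was unchanged. The simulated data held 50 changed genes for each factor, while 35.0% of genes were called in the arrays. The simulated shares therefore do not describe the recovery of changes of these sizes here.

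The members, lists, motifs and alternatives were chosen with earlier results of these data known. The text names every member, up to 5 called genes with the smallest adjusted p of the lists of partners and targets, examples of the other lists, the 4 genes nearest in profile to Dach1 and Six5, and genes marked as named after their values were seen. One gene of the partner list is not reported here.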

Additional observations from a re-analysis of the deposited data

How the results depend on the processing

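With 3 arrays per group, small differences depend on limma's shared variance, and a probe near background, such as that of Dach2, has a difference whose size moved with the processing. Of 161 values recomputed for single members, 143 stayed on the same side of the threshold, 15 lost the call, 3 gained it and none was called with the opposite sign. The 15 were all of Six5 and Eya3, the 3 were Eya1 without positive replicate 1, Eya1 with array weights and Eya2 with the slide block. The cause was not tested.

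The count of members called higher, 1 in the text, was 0 with no filter on background, 0 at a threshold of 0.01, 0 with at least a 2-fold difference and 2 with the slide block; leaving out single arrays gave 0 to 1. The count of members called lower, 3 in the text, was 2 to 4 throughout. With the replicate number as a block, the replicate block, no member was called higher (0) and 2 were called lower, Six5 having an adjusted p of 0.0913 and Eya3 of 0.106. The labels do not say that the numbers pair samples, and deviations of same-numbered arrays correlated at −0.27, −0.42 and 0.16, against 0.46, 0.36 and 0.23 for arrays of the same slide. Genes called over the whole array, 4617 in the text, were 2656 with no filter, 2157 with the replicate block, 2109 at a threshold of 0.01 and 1454 with at least a 2-fold difference, and 2485 to 5176 when single arrays were left out.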

Other observations

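Some probes near the members carry no gene symbol that could be matched, and 41 of them were compared within 500 kb of a member. Many of the 41 lie side by side and are not separate places. Of the 41, 3 were called higher and 3 lower, against 21.6% of all probes called in either direction in the fit over single probes. The 3 lower ones lie side by side. The higher ones near Eya2 and Six2, chosen after their values were seen, are given here as values. Near Eya2, a probe without a symbol that lies 39.4 kb from the Eya2 probe was higher by 0.95 ± 0.23 (limma adjusted p = 0.0332), with −1.77, −2.24 and −2.45 in positive and −3.38, −2.89 and −3.03 in negative samples. All positive arrays lay above all negative ones. Near Six2, at 493 kb, a probe without a symbol was above background on all positive arrays and on none of the negative arrays, with an adjusted p of 0.0198. Within 500 kb of Dach1 no probe of this kind was bright enough to be compared.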
